A study of Mus musculus with 9 samples.

Results

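The genes described here are 9 genes of monoamine neurons, the cells that make serotonin, noradrenaline or dopamine: Tph2, Slc6a4, Fev, Th, Dbh, Slc6a2, Slc6a3, Ddc and Slc18a2. They were taken by symbol as 9 of the 53465 genes in the count table. RNA was extracted from tissue labelled whole brain of 9 male C57BL/6 mice, 7 weeks old at the start, with 3 mice in each of 3 groups and a separate library for each mouse. CON (control) mice received saline. DNP (diabetic neuropathic pain) mice ate chow of 60% fat during 4 weeks and were then injected daily for 7 days with 50 mg/kg of streptozotocin, which kills the insulin-producing cells of the pancreas, reached a fasting glucose of at least 16.7 mmol/L and were given saline. BAC mice had the same diet and streptozotocin and then daily injections for 7 days of 8 mg/kg of baclofen, which activates GABA-B receptors. Pain was tested 4 weeks after streptozotocin and before baclofen or saline. Only mice with high glucose and lowered pain thresholds entered DNP and BAC. All DNP and BAC mice carried the diet and the toxin together, so the effects of these 2 agents cannot be told apart.

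Descending control of pain runs from the brainstem to the dorsal horn of the spinal cord. Serotonin neurons of the raphe nuclei and noradrenaline neurons of the locus coeruleus and neighbouring groups send axons to the cord, where their transmitters raise or lower the passage of pain signals. Dopamine neurons lie mainly in the ventral midbrain, with smaller groups in the hypothalamus and in the olfactory bulb. The cell bodies of these neurons are few and lie in small nuclei, and most of their mRNA is in the cell bodies. In RNA of bulk tissue, fewer cells of a type and less RNA per cell cannot be told apart.

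Between 13107382 and 16008129 reads were counted on genes per library, and a count of 0 allows up to 3 counts, or 0.187 to 0.229 CPM (counts scaled to the library total), for counting error only. The libraries differed in markers of brain regions within each group, although all carry the same tissue label. The counts of 8 Hox genes, which are expressed in the caudal hindbrain and spinal cord, summed to 1018 counts in DNP replicate 1 (DNP 1), 2627 in BAC 1 and 3500 in BAC 3, and to 0 to 5 counts in the other 6 libraries. A list of 8 cerebellar genes summed to 5494 CPM in CON 2 and 2905 CPM in BAC 1, and to 30.5 CPM in BAC 2. A list of 5 olfactory bulb genes summed to 276 CPM in DNP 2 and 91.7 CPM in BAC 2, and to 12.2 to 25.6 CPM elsewhere. The defining markers of serotonin and noradrenaline neurons, Tph2, Slc6a4, Dbh and Slc6a2, had at most 16 counts in any CON library, in DNP 2, in DNP 3 and in BAC 2. The part of these regional differences in the group comparisons below was not tested. Values without single libraries are given where these changed a result. Mitochondrial genes took 4.34 to 5.36% of the counts in CON, 6.68 to 7.01% in DNP and 5.94 to 7.23% in BAC.

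The genes of serotonin neurons were at 16 counts or fewer in 6 of the 9 libraries and abundant in DNP 1 and BAC 3. Tph2 (chr10:115078641-115185022 in GRCm38, minus strand) encodes the neuronal tryptophan hydroxylase, the first and rate-limiting enzyme of serotonin synthesis. Tph2 had 6, 5 and 7 counts in CON, 854, 5 and 16 in DNP, and 47, 6 and 1701 in BAC (replicates 1, 2 and 3). DNP 1 and BAC 3 stood far above the rest, BAC 1 lay between, and both DNP and BAC held a library at the level of CON. Slc6a4 (chr11:76998603-77032340, plus strand) encodes the serotonin transporter, which takes serotonin back into the neuron. Its counts were 2, 0 and 0 in CON, 450, 2 and 2 in DNP, and 19, 2 and 1168 in BAC. Fev (chr1:74881509-74885419, minus strand), also called Pet1, is the ETS transcription factor that sets the identity of serotonin neurons, and it had 3, 10 and 3 counts in CON, 65, 2 and 1 in DNP, and 8, 0 and 101 in BAC. The same 2 libraries held 96.5% of all Tph2 counts, 98.4% of Slc6a4 counts and 86.0% of Fev counts.

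**Figure D1:**
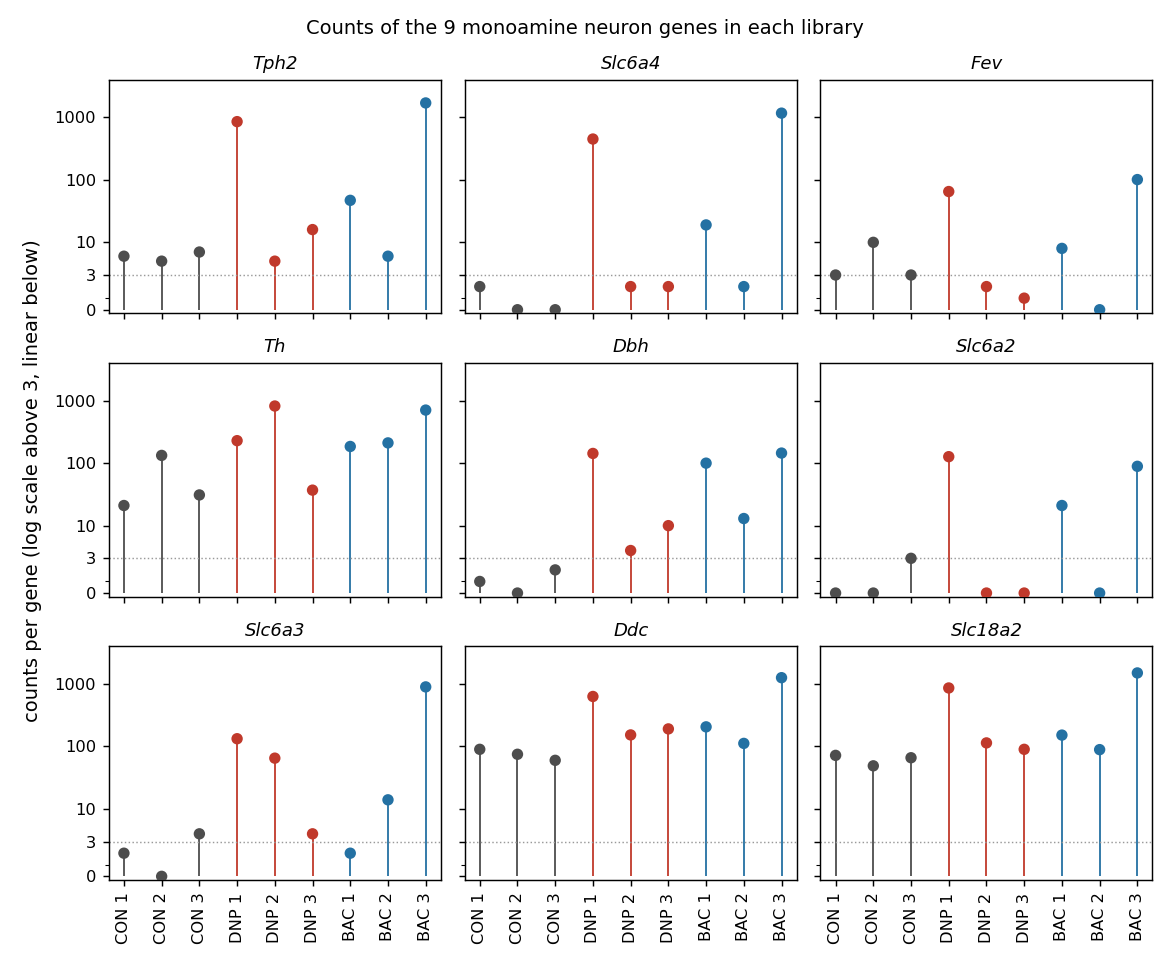
Counts of each of the 9 genes (y axis, log scale above 3 counts, linear below) in each of the 9 libraries (x axis; grey CON, red DNP, blue BAC; a point is 1 library and the dotted line marks 3 counts). Tph2 and Slc6a4 stand high in DNP 1 (854 and 450 counts) and BAC 3 (1701 and 1168 counts), while Th is highest in DNP 2 (821 counts), and Ddc and Slc18a2 have at least 49 counts in each library.

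The 250 bases before the RefSeq transcription start (GRCm38.p6) of these 3 genes are shown because the genes were counted in the same libraries. Capitals mark matches to GGAAG, the core of ETS factor sites, to TGACG, the core of the cAMP response element, and to TAATTA, a homeodomain core, searched on both strands.
Tph2: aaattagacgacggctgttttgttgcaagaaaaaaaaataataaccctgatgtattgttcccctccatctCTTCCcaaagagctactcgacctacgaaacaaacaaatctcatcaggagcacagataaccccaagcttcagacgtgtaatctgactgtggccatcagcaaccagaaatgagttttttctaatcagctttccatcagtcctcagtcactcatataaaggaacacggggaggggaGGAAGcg
Slc6a4: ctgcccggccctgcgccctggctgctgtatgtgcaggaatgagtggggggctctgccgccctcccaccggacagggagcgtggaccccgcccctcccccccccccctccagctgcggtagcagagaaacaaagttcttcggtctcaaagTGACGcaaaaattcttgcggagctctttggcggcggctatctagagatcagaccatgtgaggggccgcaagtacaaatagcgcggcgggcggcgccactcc
Fev: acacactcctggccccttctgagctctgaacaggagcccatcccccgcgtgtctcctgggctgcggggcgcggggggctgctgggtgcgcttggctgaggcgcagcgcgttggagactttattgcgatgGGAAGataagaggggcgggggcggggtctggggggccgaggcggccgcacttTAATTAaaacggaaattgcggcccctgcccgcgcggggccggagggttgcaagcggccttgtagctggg
The windows lie at chr10:115185023-115185272, minus strand (Tph2), at chr11:76998347-76998596, plus strand (Slc6a4) and at chr1:74885409-74885658, minus strand (Fev), each written 5′ to 3′ along its gene. GGAAG matched 180 bases (minus strand) and 7 bases upstream of the start in Tph2 and 121 bases upstream in Fev, and none was in the Slc6a4 window. Of all 32851 windows of this length, 64.1% hold GGAAG, so a match to it is common. TGACG matched 101 bases upstream in Slc6a4 (17.8% of all windows hold it), and TAATTA 69 bases upstream in Fev (4.84%).

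Dbh and Slc6a2, genes of noradrenaline neurons, were high in the same 2 libraries, and Dbh was also high in BAC 1. Dbh (chr2:27165233-27183200, plus strand) encodes dopamine beta-hydroxylase, which turns dopamine into noradrenaline. It had 1, 0 and 2 counts in CON, 143, 4 and 10 in DNP, and 100, 13 and 145 in BAC. Every DNP and BAC library was above every CON library, by few counts in DNP 2, DNP 3 and BAC 2. Of all genes, 9.59% were higher without overlap in DNP versus CON and 7.21% in BAC versus CON. Slc6a2 (chr8:92960079-93001667, plus strand) encodes the noradrenaline transporter. It had 0, 0 and 3 counts in CON, 127, 0 and 0 in DNP, and 21, 0 and 89 in BAC, so that 5 libraries had no count and only DNP 1, BAC 1 and BAC 3 exceeded 3 counts. BAC 1, in which the Hox genes had 2627 counts, held 100 of the 418 Dbh counts. It held only 21 of the 240 Slc6a2 counts and 47 of the 2647 Tph2 counts. The Dbh promoter window held a TGACG match 222 bases upstream of the start on the minus strand.

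Slc6a3 and Th, which mark dopamine neurons, parted from the other genes and from each other. Slc6a3 (chr13:73536747-73578672, plus strand) encodes the dopamine transporter. Its counts were 2, 0 and 4 in CON, 133, 65 and 4 in DNP, and 2, 14 and 898 in BAC. BAC 3 was highest, followed by DNP 1 and DNP 2, and BAC 1 was at the level of CON. Th (chr7:142892752-142931128, minus strand) encodes tyrosine hydroxylase, the rate-limiting enzyme of dopamine and noradrenaline synthesis. Its counts were 21, 133 and 31 in CON, 229, 821 and 37 in DNP, and 185, 211 and 707 in BAC. DNP 2 was highest, BAC 3 was next, and DNP 3 lay within the CON range. DNP 2 also had the highest olfactory bulb markers, with 1441 counts of Doc2g and 1694 of Cdhr1 against 53 to 404 and 25 to 629 in the other 8 libraries. CON 2, the CON library with the most Th, had the most cerebellar markers. Of the Th counts, 39.4% lay in DNP 1 and BAC 3, the lowest share among the 9 genes.

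The Th promoter window is shown because it holds the full cAMP response element, TGACGTCA, in capitals 45 bases upstream of the start; 1.55% of all 32851 windows hold it, and no other window of these genes does. The element reads the same on both strands and contains TGACG on each.
Th: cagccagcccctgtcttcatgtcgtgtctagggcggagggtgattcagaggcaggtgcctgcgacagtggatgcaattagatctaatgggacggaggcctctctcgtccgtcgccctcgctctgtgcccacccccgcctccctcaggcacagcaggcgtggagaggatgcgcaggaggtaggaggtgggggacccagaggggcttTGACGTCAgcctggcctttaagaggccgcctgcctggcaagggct
This window lies at chr7:142899996-142900245, minus strand in GRCm38.p6. The windows of Slc6a3 and Ddc held none of these motifs, that of Slc18a2 held GGAAG 166 bases upstream on the minus strand, and Slc6a2 is named only. A match describes letters in the window and does not show binding.

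Ddc and Slc18a2, which all monoamine neurons share, were counted in every library and were higher in each of the 6 DNP and BAC libraries than in any CON library. Of all genes, 9.59% were higher without overlap in DNP versus CON and 7.21% in BAC versus CON. The share of genes higher in all 6 libraries was not computed. Ddc (chr11:11814101-11898144, minus strand) encodes aromatic L-amino acid decarboxylase, the enzyme that makes serotonin and dopamine from their precursors. It had 90, 75 and 60 counts in CON, 631, 153 and 191 in DNP, and 206, 112 and 1261 in BAC. Slc18a2 (chr19:59260896-59296012, plus strand) encodes VMAT2, which loads monoamines into vesicles, and it had 72, 49 and 66 counts in CON, 863, 114 and 90 in DNP, and 152, 89 and 1502 in BAC. The lead over CON was wide in DNP 1 and BAC 3 and narrower elsewhere. Scaled to library totals, Slc18a2 was 5.96 CPM in DNP 3 and 6.01 CPM in BAC 2 against 4.50 CPM in the highest CON library. The mitochondrial share was likewise higher in each of these 6 libraries than in CON, and its part in the result was not tested. Slc18a2 overlaps the antisense gene Gm29261 over 111 of its 5225 exonic bases. Gm29261 had 5 counts in all, although these unstranded libraries cannot separate the reads of the overlap.

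Per length, Tph2 was the highest of the 9 genes in both rich libraries, at 21.2 FPKM (a count scaled to gene length and library total) in DNP 1 and 37.7 in BAC 3. Slc18a2 followed, at 16.4 FPKM in DNP 1 and 25.6 in BAC 3. Slc6a2 was the lowest, at 1.40 and 0.873 FPKM. The order was different in the other libraries. Slc18a2 led in CON 1 and CON 3 at 1.18 FPKM each, Ddc led in DNP 3 at 2.36 FPKM, and Th led in CON 2, DNP 2, BAC 1 and BAC 2 at 2.41, 14.1, 3.54 and 3.58 FPKM. The gene lengths behind these FPKM differ from the annotated exonic bases. They are 3803 against 5225 bases for Slc18a2, 3983 against 2364 for Th and 5355 against 4461 for Ddc. The order with exonic bases was not computed.

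**Figure D2:**
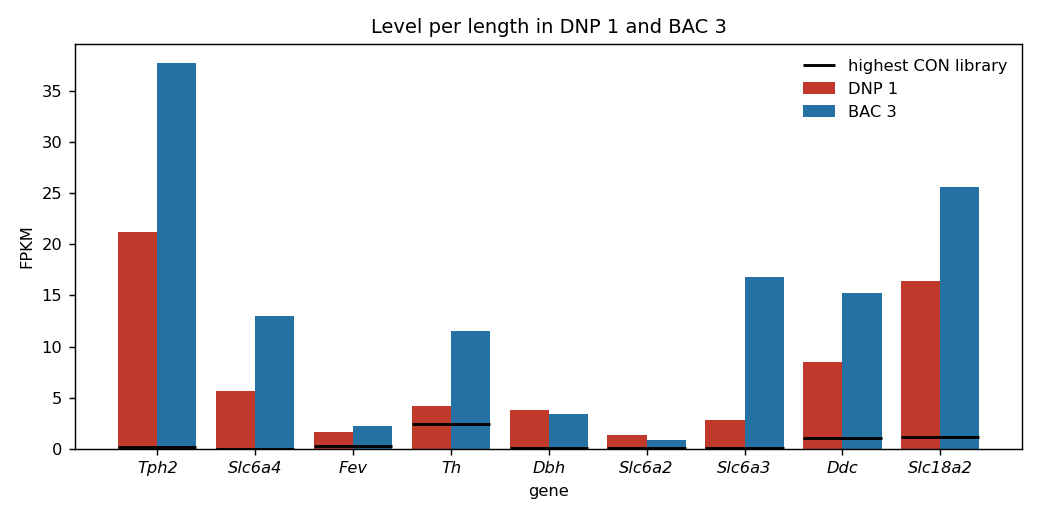
Level per length (FPKM, y axis) of each gene (x axis) in DNP 1 (red bars) and BAC 3 (blue bars), with the highest of the 3 CON libraries as a black line; each bar is 1 library, with no error. Tph2 is the tallest bar in both libraries (21.2 and 37.7 FPKM), and the CON line stays at or below 2.41 FPKM for every gene.

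BAC 3 and DNP 1 also differed from each other, with ratios that varied between genes, also between genes of the same transmitter. After scaling to library totals, BAC 3 had 6.03 times the Slc6a3 level of DNP 1 (95% counting interval 5.02 to 7.29) and 2.76 times the Th level (2.37 to 3.22). The serotonin genes were 1.78 (1.64 to 1.93), 2.32 (2.08 to 2.59) and 1.39 (1.01 to 1.93) times as high, for Tph2, Slc6a4 and Fev. Dbh did not differ beyond counting error (ratio 0.906, 0.714 to 1.15), and Slc6a2 was lower in BAC 3 (0.626, 0.472 to 0.827). Chrna6 and Chrnb3, nicotinic receptor subunits of midbrain dopamine neurons, were 3.89 (2.57 to 6.10) and 4.34 (2.42 to 8.36) times as high in BAC 3. The midbrain dopamine list did not differ as a whole in this way: Aldh1a1 had 234 CPM in DNP 1 and 236 CPM in BAC 3, Slc10a4 had 20.2 and 27.0 CPM, and Chrnb3 was higher in CON 3 (3.34 CPM) than in DNP 1 (1.01 CPM). These ratios compare a pair of libraries and not the treatments.

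**Figure D3:**
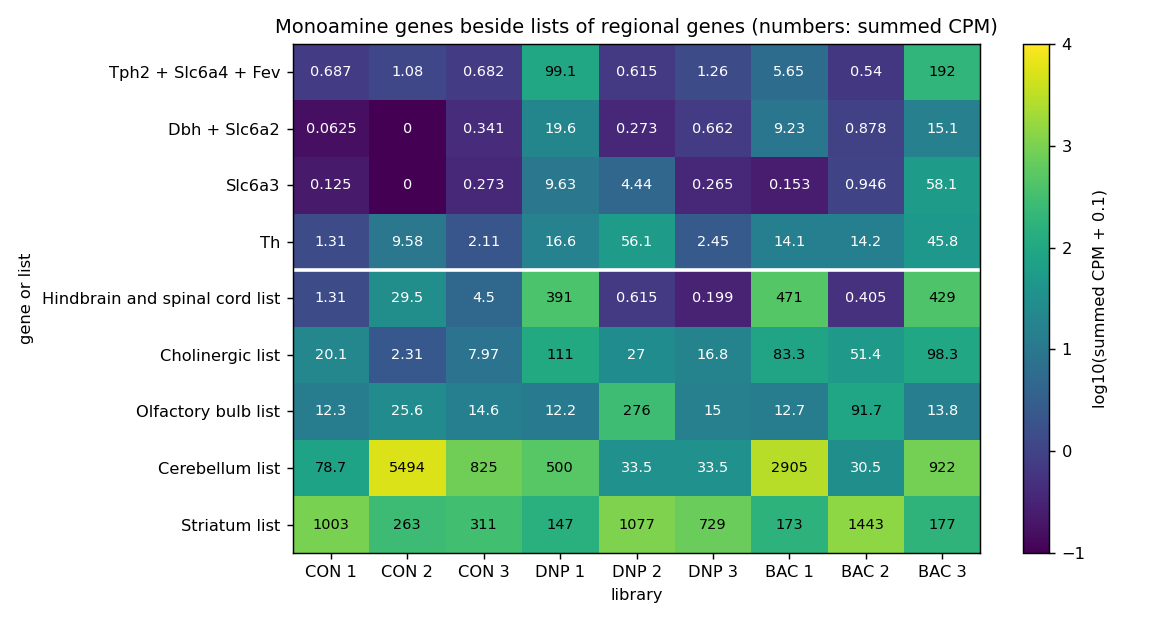
Summed CPM (counts scaled to library totals, numbers in the cells) of the monoamine genes (upper 4 rows) and of lists of regional and cholinergic genes (lower 5 rows) in each library, coloured by log10(summed CPM + 0.1). Libraries with 99.1 and 192 CPM of serotonin genes (DNP 1 and BAC 3) also have 391 and 429 CPM of the hindbrain and spinal cord list, while BAC 1 has 471 CPM of that list and 5.65 CPM of serotonin genes.

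DNP was compared with CON to ask whether these genes differ in the diabetic pain model. All 9 genes passed the filter on low counts over the 9 libraries, and all 9 were higher on average in DNP, with a median log2 fold change of 5.02 against 0.01 over all 18501 genes tested. Most passed only through libraries of DNP and BAC in which they were high, so this count and median are a description and support nothing. With the filter run on the 6 libraries of this comparison alone, only Th, Ddc and Slc18a2 passed. After adjustment 0 of them passed 0.05 in edgeR's quasi-likelihood test (adjusted p 0.356 to 0.703), where 0% of all genes passed. At an unadjusted p under 0.05 in edgeR there were 3 of the 9, Dbh, Ddc and Slc6a4, against 5.71% of all genes higher at that threshold. The groups did not overlap for 3 genes, Dbh, Ddc and Slc18a2, against 9.59% of all genes. Dbh and Slc6a4 passed the filter only through libraries in which they were high, so these counts of genes are also a description and support nothing. Ddc averaged 5.18 ± 0.890 CPM in CON and 22.9 ± 19.8 CPM in DNP (SD, n = 3 each), a log2 fold change of 2.14 (SE 0.90, edgeR adjusted p = 0.428). Dbh averaged 0.0689 ± 0.0703 CPM in CON and 3.76 ± 5.71 CPM in DNP (SD, n = 3 each; edgeR adjusted p = 0.356). The summed Dbh counts of 157 in DNP and 3 in CON gave a ratio of 53.5 (95% counting interval 18.0 to 262). This interval leaves out the spread between mice, and 143 of the 157 counts lay in DNP 1. Th had a log2 fold change of 2.53 (SE 1.12, edgeR adjusted p = 0.447) and Tph2 one of 5.64 (SE 2.49, edgeR adjusted p = 0.446).

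The size of these differences rested on DNP 1 for most genes. For Th it rested on DNP 2, which held 821 of the 1087 Th counts of DNP: the log2 fold change was 1.12 (SE 1.03, edgeR adjusted p = 0.759) without DNP 2 and 3.80 (SE 1.29, edgeR adjusted p = 0.505) without CON 2. In DNP 2 and DNP 3 together, Tph2 was 1.75 times the CON level (95% counting interval 0.887 to 3.48), and Fev was 0.281 times (0.0525 to 0.981). Slc6a3 was still 17.2 times the CON level there (7.52 to 48.6), with 65 of its 69 counts in DNP 2. Without DNP 1 and BAC 3, the log2 fold change of Ddc was 1.15 (SE 0.33, edgeR adjusted p = 0.526) and that of Slc18a2 0.67 (SE 0.33, edgeR adjusted p = 0.608). Without BAC 1 as well, which leaves no library with more than 5 Hox counts, Ddc gave 1.14 (SE 0.25, edgeR adjusted p = 0.447). DESeq2 called Dbh in DNP versus CON (adjusted p = 0.0128, against 1.85% of all genes called) and in BAC versus CON (adjusted p = 0.00868, against 0.531%), and gave no p for Tph2 or Slc6a4, whose values in single libraries exceeded its limit for outlying counts. Dbh passed the filter only through DNP and BAC libraries in which it was high. It had 3 counts in all of CON, and DNP 1 held 143 of its 157 DNP counts. These calls are a description and support nothing.

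BAC was compared with DNP to ask whether baclofen shifts these genes in diabetic mice. No difference was larger than the spread between mice. The fitted values were higher in BAC for 7 genes and lower for Th and Slc6a2, with a median log2 fold change of 0.57 against -0.01 over all genes. These directions rested on single libraries. Without BAC 3, 6 of the 7 turned, among them Tph2 (-3.46), Slc6a4 (-3.84) and Slc6a3 (-3.07). Without DNP 1, Tph2 was 5.71 and 4 genes (Tph2, Slc6a4, Dbh and Slc6a2) had an unadjusted edgeR p under 0.05, with adjusted p of 0.665. Of all 19007 genes tested in that setting, 1390 were under 0.05 in either direction. No gene passed an adjusted p of 0.05 in edgeR (adjusted p 0.998 to 0.999; 0% of all genes passed) or an unadjusted p of 0.05 by edgeR (1.37% of all genes higher) or by DESeq2, which gave a p for 7 of the 9, and the groups overlapped for all 9 (3.38% of all genes were higher without overlap). Tph2 averaged 21.1 ± 35.3 CPM in DNP and 37.0 ± 60.8 CPM in BAC (SD, n = 3 each), a log2 fold change of 0.81 with a standard error of 1.88. Th averaged 25.02 ± 27.8 and 24.2 ± 17.6 CPM, a log2 fold change of -0.05 (SE 1.04). Ddc had the smallest standard error, 0.85, with a log2 fold change of 0.57, so that even for this gene a several-fold change in either direction lay within the error.

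BAC versus CON uses the same CON libraries as DNP versus CON, so the 2 comparisons are not independent. All 9 genes were higher in BAC, with a median log2 fold change of 4.94 against -0.02 over all genes, and the same limit of the filter applies. With the 6 libraries of this comparison alone, Th, Dbh, Ddc and Slc18a2 passed it. After adjustment 0 of the 9 passed 0.05 in edgeR (adjusted p 0.628 to 0.730; 0% of all genes passed). At an unadjusted p under 0.05 in edgeR there were 6 (Slc18a2, Dbh, Tph2, Slc6a3, Ddc and Slc6a4), against 4.46% of all genes higher. The groups did not overlap for 5 (Slc6a4, Th, Dbh, Ddc and Slc18a2), against 7.21% of all genes. For Slc6a4 this rests on 2 counts in BAC 2 beside 2 counts in CON 1. Tph2, Slc6a3 and Slc6a4 did not pass the filter on these 6 libraries alone, so these counts of genes are also a description and support nothing. Slc18a2 averaged 4.30 ± 0.704 CPM in CON and 37.3 ± 49.7 CPM in BAC (SD, n = 3 each), a log2 fold change of 3.11 (SE 1.23, edgeR adjusted p = 0.628). Without BAC 3 and DNP 1 it was 1.00 (SE 0.33, edgeR adjusted p = 0.9995), and that of Ddc was 1.13 (SE 0.33) in place of 2.72. In BAC 2 alone, which had no Hox counts, Ddc was 1.498 times the CON level (95% counting interval 1.18 to 1.89), Slc18a2 1.43 times (1.10 to 1.85) and Tph2 1.00 times (0.326 to 2.64).

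**Figure D4:**
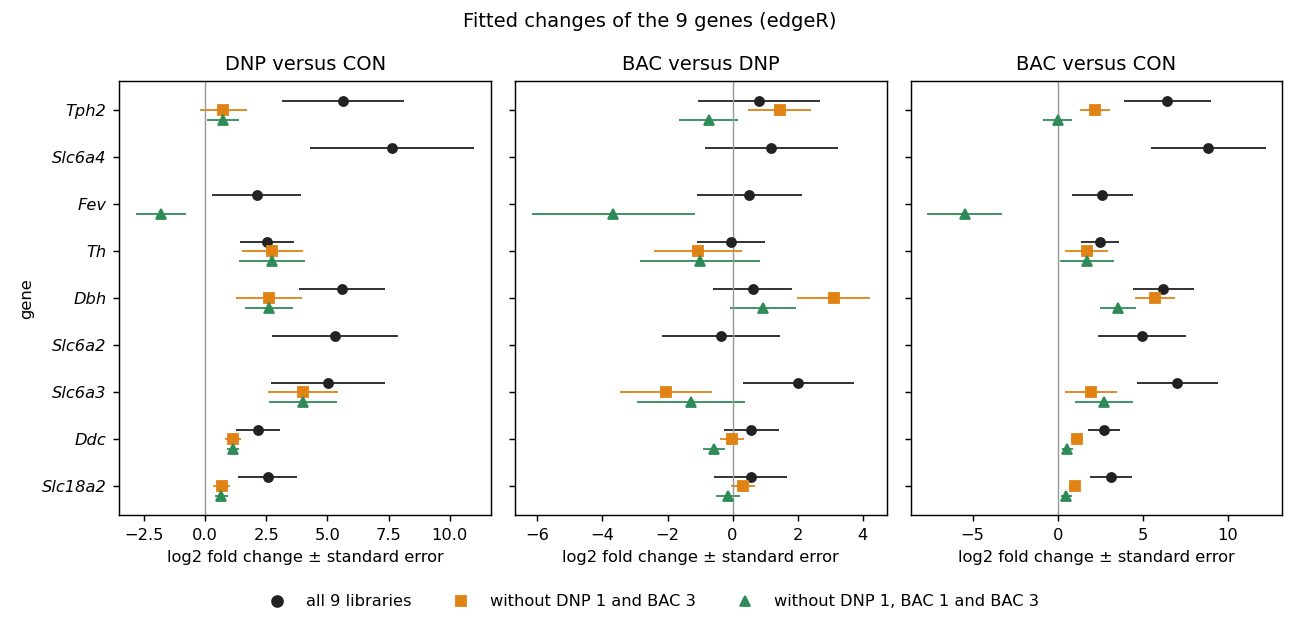
Log2 fold changes with standard errors from edgeR (x axis) of the 9 genes (y axis) in the 3 comparisons, with all 9 libraries (black circles), without DNP 1 and BAC 3 (orange squares) and without DNP 1, BAC 1 and BAC 3 (green triangles); a missing symbol is a gene that did not pass the filter in that setting. Against CON, Tph2 moves from 5.64 to 0.74 in DNP without DNP 1 and BAC 3, Ddc from 2.14 to 1.15, and Th from 2.53 to 2.75; Th depended instead on DNP 2, without which (not plotted) it was 1.12.

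Ratios of genes within a library do not depend on its depth. Slc6a4 to Tph2, the transporter and the enzyme of serotonin neurons, was 0.527 (95% Wilson interval 0.470 to 0.591) in DNP 1, 0.404 (0.239 to 0.685) in BAC 1 and 0.687 (0.637 to 0.740) in BAC 3, the libraries where both had more than 3 counts. The range of these 3 values was 0.404 to 0.687 while Tph2 itself ranged from 47 to 1701 counts. The ratio was not constant, since the BAC 3 interval lay above that of DNP 1. Slc6a2 to Dbh was 0.888 (0.700 to 1.13) in DNP 1, 0.614 (0.472 to 0.799) in BAC 3 and only 0.210 (0.132 to 0.335) in BAC 1, whose interval lay below both others. Slc6a3 to Th was 1.27 (1.15 to 1.40) in BAC 3 and 0.581 (0.469 to 0.719) in DNP 1, but 0.0792 (0.0615 to 0.102) in DNP 2 and 0.0664 (0.0389 to 0.113) in BAC 2. Low ratios were also found in CON 3 (0.129, 0.0475 to 0.351) and DNP 3 (0.108, 0.0402 to 0.291), on 4 counts of Slc6a3 each, and BAC 1 had 2 counts of Slc6a3 beside 185 of Th. The olfactory bulb list was at 276 and 91.7 CPM in DNP 2 and BAC 2, and at 14.6, 15.0 and 12.7 CPM in CON 3, DNP 3 and BAC 1. The source of the low ratios was not tested. CON had at most 1 library with both counts above 3, so groups were compared with 0.5 counts added to each gene. None of the 9 exact two-sided permutation tests reached significance (p 0.2 to 1, adjusted 0.45 to 1), and 3 mice against 3 cannot go below 0.1.

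**Figure D5:**
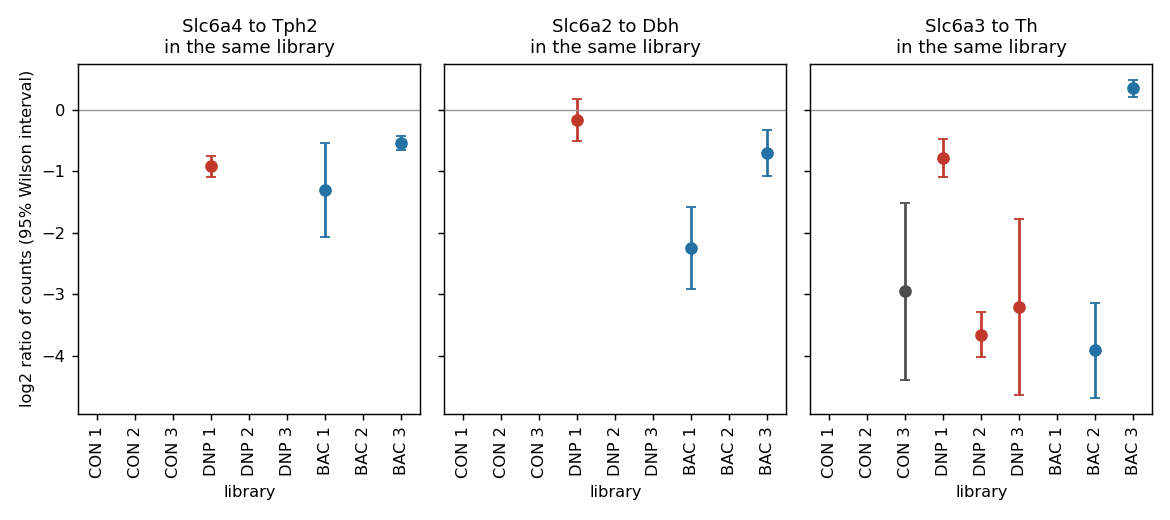
Log2 ratio of the counts of a pair of genes in the same library (y axis) with its 95% Wilson interval, for the libraries (x axis; grey CON, red DNP, blue BAC) in which both genes had more than 3 counts. The 3 Slc6a4 to Tph2 values lie between -1.31 and -0.54, while Slc6a3 to Th ranges from -3.91 in BAC 2 to 0.35 in BAC 3.

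Over the 9 libraries, the standard deviation of log2 CPM ranged from 1.33 (Ddc) to 3.24 (Slc6a4), beside a median of 0.346 for all genes tested. This placed the 9 genes between the 96.9th and the 99.9th percentile of all genes. Most of them passed the filter only through libraries in which they were high, so a wide spread was partly set in advance and supports nothing. Likeness of pattern was measured as the root mean square difference between log2 CPM profiles, each centred on its own mean over the 9 libraries. Among the 9 genes, Ddc and Slc18a2 were the closest pair (0.44), followed by Tph2 and Slc6a4 (0.57), and Slc6a4 and Th were the farthest apart (2.76). Outside the 9 genes, Otp, a homeobox gene, was closest to both Tph2 (0.93) and Slc6a4 (1.16), and Hoxd3 was also among the closest to each (1.19 and 1.33). Otp was higher in DNP 1 (27.8 CPM) than in BAC 3 (12.7 CPM), the reverse of Tph2. Lhx4, Gchfr and Evx2 were closest to Fev (0.72 to 0.83). Arhgap36, Lmx1b and Prrxl1 were closest to Dbh (0.62 to 0.67), and Slc44a3 and Evx1 to Slc6a2 (0.48 and 0.68). Foxd3, Ppm1j and Pbx3 were closest to Th (0.85 to 0.91). Foxd3, Slc10a4 and Calcr were closest to Slc6a3, at larger differences of 1.53 to 1.70. Sfrp5 was among the closest for both Ddc (0.50) and Slc18a2 (0.57), beside Chodl and Gm39244 for Ddc and Cubn and A530053G22Rik for Slc18a2.

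Among transcription factors of monoamine neurons, 8 of 13 listed genes were tested, and 5 were higher and 3 lower in DNP than in CON, with a median log2 fold change of 0.41. Lmx1b, needed for serotonin and dopamine neurons, had 1, 0 and 3 counts in CON, 111, 8 and 3 in DNP, and 153, 8 and 236 in BAC, and was the only one whose unadjusted edgeR p lay under 0.05 in that comparison. Its edgeR adjusted p was 0.398, and 5.71% of all genes were higher at the unadjusted threshold. Lmx1b was thus high in the 3 libraries with Hox counts. En2, an engrailed gene of the midbrain and cerebellum, went the other way in DNP versus CON (log2 fold change -3.51, SE 1.85, edgeR adjusted p = 0.512). Gata3, a factor of serotonin neurons that did not pass the filter and was picked out after its values were seen, had 105 counts in DNP 1 and 162 in BAC 3, and 0 to 7 in the other 7 libraries, BAC 1 among them.

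The genes of tetrahydrobiopterin, the cofactor that tryptophan and tyrosine hydroxylase need, were all 6 higher in DNP than in CON, with a median log2 fold change of 1.00 against 0.01 over all genes. Qdpr, which regenerates the cofactor, and Pcbd1, which recycles it, had an unadjusted edgeR p under 0.05 there, against 5.71% of all genes higher at that threshold. After adjustment 0 of the 6 passed. Qdpr had 1342, 1135 and 945 counts in CON, 2360, 2759 and 5008 in DNP, and 3545, 1184 and 6376 in BAC. Among DNP libraries Qdpr was highest in DNP 3, where Tph2 had 16 counts. It was above CON in all 3 DNP libraries, as were 9.59% of all genes, but within the CON range in BAC 2. Its DNP versus CON log2 fold change was 1.54 (SE 0.51, edgeR adjusted p = 0.364). Gch1, the rate-limiting enzyme of the cofactor, had 17, 16 and 30 counts in CON, 79, 36 and 30 in DNP, and 28, 7 and 193 in BAC. Its groups overlapped.

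The genes that degrade monoamines or take them up with low affinity were split, 3 higher and 3 lower in DNP than in CON, with none at an unadjusted p under 0.05 in edgeR. Maob, a monoamine oxidase, averaged 19.8 ± 0.186 CPM in CON and 25.1 ± 3.78 CPM in DNP (SD, n = 3 each), a log2 fold change of 0.34 (SE 0.24, edgeR adjusted p = 0.622). Hdc, the enzyme of histamine synthesis, had a log2 fold change of -0.38 (SE 0.84). Receptors for the transmitters were split in direction. Of 12 serotonin receptor genes tested, 7 were higher and 5 lower in DNP than in CON (median 0.17 on the log2 scale), of 9 adrenergic receptor genes 3 were higher and 6 lower (-0.31), and of 4 dopamine receptor genes 3 were higher and 1 lower (0.38). None of these receptor genes had an unadjusted edgeR p under 0.05 in DNP versus CON or in BAC versus DNP. In BAC versus CON, Htr2c (higher) and Adra1d (lower) did, where 4.46% of all genes were higher at that threshold. Htr2c, a serotonin receptor of choroid plexus and neurons, had 697, 119 and 412 counts in CON, 1434, 663 and 397 in DNP, and 1167, 1279 and 1785 in BAC. Its BAC versus CON log2 fold change was 1.77 (SE 0.64, edgeR adjusted p = 0.628). BAC was above CON without overlap for 2 of the 12 serotonin receptor genes, Htr2c among them, against 7.21% of all genes. Adra1d, an alpha-1 adrenergic receptor, was lower in BAC than in CON by a log2 fold change of -1.59 (SE 0.58, edgeR adjusted p = 0.628), with CON at 42.5, 9.84 and 37.1 CPM and BAC at 6.32, 14.5 and 8.82 CPM, so that the groups overlapped.

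All 5 cholinergic genes were higher in DNP than in CON (median log2 fold change 2.15), 2 of them at an unadjusted edgeR p under 0.05 against 5.71% of all genes, and the groups overlapped for all 5. Slc5a7, the choline transporter, had 98, 13 and 26 counts in CON, 532, 128 and 72 in DNP, and 466, 331 and 460 in BAC, and Slc18a3, the vesicular acetylcholine transporter, 52, 6 and 6, then 357, 72 and 29, then 196, 95 and 328. Of the midbrain dopamine list, 4 of 5 genes were tested, 3 higher and 1 lower in DNP than in CON. Slc10a4, a vesicle protein of cholinergic and monoamine neurons, had a log2 fold change of 2.70 (SE 1.01, edgeR adjusted p = 0.392). No gene of any list passed an adjusted p of 0.05 in any comparison in edgeR.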

How the data were processed

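Poly(A) RNA of tissue labelled whole brain was sequenced by the authors as non-strand-specific paired-end libraries. Per the labels, reads were checked with FastQC 0.11.9 and filtered with fastp, Bowtie2 2.3.4.1 is also named, and HISAT2 2.1.0 and StringTie 1.3.3b were used with GRCm38. The deposited values are unnormalized gene counts and FPKM. Each deposited FPKM is a count over a gene length and over the library's total (implied lengths differed at most 1.000044-fold over 14125 genes), so they carry no TMM factor. How reads of several genes were counted is not given in the sources used here.

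Counts were fitted in R 4.3.3 with edgeR 4.0.16 (quasi-likelihood test, TMM, filterByExpr with a minimum count of 10, Benjamini-Hochberg over 18501 genes, threshold 0.05), all 9 libraries in a single model with group as factor. The biological coefficient of variation was 36.5%, and p-values measure the spread between mice. CPM in means are after TMM. A fitted fold change against CON for genes with up to 3 counts in each CON library depends on edgeR's prior count, so ratios of summed counts with exact 95% intervals stand beside some of them. These intervals hold counting error only and not the spread between mice. Alternatives used DESeq2 1.42.0 and limma 3.58.1. The pipeline was checked on simulated counts. Gene positions are those of the GENCODE M21 annotation of GRCm38, and 8 of the 9 genes matched a RefSeq promoter window. Genes named were the 9 members, up to 3 genes per pathway list with the smallest p in DNP versus CON and in BAC versus DNP, the 3 genes nearest in pattern to each member, and region markers set beside a member. Not every gene so chosen is reported here. Members and lists were chosen with earlier results of these data known.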

Additional observations from a re-analysis of the deposited data

How the results depend on the processing

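In each comparison 0 of the 9 genes passed an adjusted p of 0.05 under the alternatives run with edgeR and limma. DESeq2 called 1 gene, Dbh, in DNP versus CON and 1, Dbh, in BAC versus CON (log2 fold changes 5.76 and 6.38). The limit of the filter given above applies to these calls. In DNP versus CON, 3 genes were at an unadjusted p under 0.05, against 5 with DESeq2, 6 without a filter and 0 with limma on log2(FPKM + 1) or log2(FPKM + 0.1). Leaving out single libraries gave 0 (without DNP 1) to 8 genes (without DNP 3), with 1 without CON 1 or CON 3 and 6 without DNP 2, BAC 2 or BAC 3. Over all genes, in either direction, 2415 of 18473 were at that threshold with DESeq2 and 2510 of 35095 without a filter. With limma there were 1990 and 2041 of 18501. Single libraries left out gave 1426 of 18989 (without DNP 3) to 2222 of 19013 (without BAC 2), with 1783 of 19007 without DNP 1. In BAC versus DNP, 0 genes became 1 with the hindbrain score (mean log2 level of the 10 hindbrain and spinal cord genes) as covariate, 1 without DNP 1 and BAC 3 (a setting added after seeing the data) and 0 to 4 with single libraries left out, 4 without DNP 1. Over all genes there were 495 of 18501 with the score and 732 of 18781 without DNP 1 and BAC 3. Single libraries left out gave 216 of 18989 (without DNP 3) to 1484 of 19013 (without BAC 2), with 1390 of 19007 without DNP 1. In BAC versus CON, 6 genes became 1 with limma on log2(FPKM + 1), 3 with log2(FPKM + 0.1), 3 with the replicate block, 1 with the hindbrain score, and 1 (without BAC 3) to 7 with single libraries left out, 2 without CON 1 or CON 3 and 3 without CON 2. Over all genes there were 1527 and 1551 of 18501 with limma, 1203 with the block and 1437 with the score. Single libraries left out gave 604 of 18984 (without BAC 3) to 2693 of 19013 (without BAC 2). The setting without DNP 1, BAC 1 and BAC 3 was also added after seeing the data. It leaves only BAC 2 in its group, so no count of genes is given for it.

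Most directions that turned were those of BAC versus DNP. There the hindbrain score gave log2 fold changes of -1.12 (Tph2), -0.96 (Slc6a4), -1.63 (Fev), -0.22 (Dbh), -0.0234 (Slc6a3), -0.44 (Ddc) and -0.45 (Slc18a2). Without DNP 1, BAC 1 and BAC 3 they were -0.74 (Tph2), -3.67 (Fev), -1.27 (Slc6a3), -0.57 (Ddc) and -0.15 (Slc18a2), and without DNP 1 and BAC 3 -2.05 (Slc6a3) and -0.0158 (Ddc). The replicate block gave 0.56 for Th and -0.95 for Slc6a3, limma 0.35 and 0.62 for Th and 0.39 for Slc6a2 (pseudocount 0.1). Leaving out single libraries gave -3.46 to 5.71 (Tph2), -3.84 to 7.46 (Slc6a4), -2.46 to 4.42 (Fev), -0.83 to 1.35 (Th), -1.99 to 8.14 (Slc6a2), -3.07 to 3.04 (Slc6a3), -1.01 to 1.57 (Ddc) and -1.56 to 2.45 (Slc18a2). All but Th, Slc6a2 and Dbh turned without BAC 3. In DNP versus CON, the hindbrain score turned Fev to -1.61 and Slc6a2 to -1.68, leaving out the 3 libraries with Hox counts turned Fev to -1.82, and single libraries gave -1.80 to 2.93 (Fev) and -3.19 to 8.48 (Slc6a2), both lowest without DNP 1. In BAC versus CON, the hindbrain score gave -3.24 for Fev and -4.56 for Slc6a2, leaving out those 3 libraries -0.0131 for Tph2 and -5.48 for Fev, and single libraries -0.37 (without BAC 3) to 3.46 for Fev.

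The log2 ratios moved with FPKM in place of counts, since FPKM divide by length: Slc6a4 to Tph2 to -1.92 in DNP 1, -2.30 in BAC 1 and -1.53 in BAC 3, Slc6a2 to Dbh to -1.43, -3.51 and -1.96, and Slc6a3 to Th in BAC 3 to 0.55. Same-numbered libraries deviated together (r above 0.1) in 3 of 9 pairs (r -0.579 to 0.56, other pairs -0.701 to 0.614). These deviations include the regional differences between libraries, so they cannot show whether the numbers pair the mice. Slc6a4, Slc6a2, Fev, Tph2, Slc6a3 and Dbh fell below the filter in some settings, which then gave no value, and the cause of the changes above was not tested. Low counts limit Slc6a4, Slc6a2 and Dbh in CON, where all libraries together held 2, 3 and 3 counts.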
